A study of Homo sapiens with 12 samples.

Results

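The bone morphogenetic protein (BMP) and transforming growth factor β (TGF-β) genes described here are 10 of the 23064 gene symbols in the deposited tables: the ligand genes BMP2, BMP4, BMP7, TGFB1 and TGFB2, the inhibitory SMAD genes SMAD6 and SMAD7, and the target genes ID1, ID2 and ID3. They were chosen by symbol, with the transcript that held the most counts standing for each gene. BAMBI, a decoy receptor named with them, is given beside them. The libraries came from CAL-29 and 5637, established human bladder carcinoma cell lines, harvested at day 3 after transfection with a control siRNA (siCtrl) or with an siRNA against KMT9α (siKMT9α), a subunit of the methyltransferase KMT9. Each line had 3 libraries per siRNA, 12 in all. CAL-29 cells received 50 nM siRNA with RNAiMAX and 5637 cells 90 nM with DharmaFECT 3, so line, dose and reagent cannot be told apart. A single siRNA against KMT9α was sequenced. The study's text names siKMT9α#1 for this experiment, whereas the tables call it si270. Nothing in the labels says that libraries of a group came from separate cultures, so the p-values measure the spread between these libraries, which may be technical.

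The kept transcripts held between 24479488 and 35148658 counts per library. N6AMT1, which encodes KMT9α, had 11.1, 9.97 and 9.42 CPM (counts scaled by library size with TMM) in the siCtrl libraries of CAL-29 cells and 2.78, 2.88 and 1.96 CPM with siKMT9α. The corresponding values were 13.7, 13.4 and 13.5 CPM against 3.87, 2.26 and 2.65 CPM in 5637 cells. The target therefore lay lower in all 6 siKMT9α libraries, at 25.1% and 21.5% of its control level. Of 12 epithelial and urothelial marker genes, 11 exceeded 1 CPM in CAL-29 cells and 10 in 5637 cells. Their summed level was between 13100 and 13700 CPM with siCtrl and from 6410 to 6570 CPM with siKMT9α in CAL-29 cells, and moved from between 8940 and 9360 CPM to between 6110 and 6330 CPM in 5637 cells. The 10 markers of blood, endothelial, stromal and muscle cells summed to between 7.84 and 16.5 CPM over all groups, and between 1 and 3 of them were at 0 in each group. The sums are weighted to the most abundant genes, KRT8 in CAL-29 cells and KRT7 in 5637 cells. Singly, at an edgeR adjusted p below 0.05, 8 of the 12 were lower in CAL-29 cells and 2 higher (KRT7 and PPARG). The shares of all genes were 35.3% and 34.3%. In 5637 cells, 11 of 11 tested were lower, beside 35.6% of all genes. What part the lower summed level has in the results below was not tested. In bulk RNA, fewer cells of a type and less RNA per cell cannot be told apart.

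TGF-β and BMP ligands are secreted dimers that bring together type I and type II receptor kinases. The receptors phosphorylate SMAD proteins, which join SMAD4 and enter the nucleus, with SMAD2 and SMAD3 serving mainly TGF-β and activins and SMAD1, SMAD5 and SMAD9 serving mainly BMPs. SMAD6 and SMAD7 are induced by the pathway and inhibit it, and the ID genes, classical BMP targets, encode proteins that bind E proteins and keep them from DNA. In epithelia, TGF-β is best known for growth arrest and for a shift towards mesenchymal traits.

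Short stretches of sequence are shown for what the regulatory regions and transcripts of these genes hold. The 7 letters ACATTCA are complementary to bases 2 to 8 of the active strand of siKMT9α#1, and CACATTC to the same bases of siKMT9α#2. In the GENCODE annotation of GRCh37 (hg19), 15.4% of 12409 genes tested in both lines hold ACATTCA when the longest 3′ UTR of each gene is read, 6.0% when the shortest is, and for CACATTC these shares are 13.8% and 5.52%. None of the 10 genes (0 of 10) holds either run, in the longest or in the shortest 3′ UTR. Among 73 other genes of the pathway, 16 (21.9%) hold ACATTCA. Of those named below, 5 do, and the site is shown in capitals on the transcribed strand.
TGFBR1, chr9:101915244-101915270, plus strand of GRCh37: atggttaataACATTCAacctgtttat
BMPR1A, chr10:88684524-88684550, plus strand: atatgtacatACATTCAtactgtagaa
FST, chr5:52782649-52782675, plus strand: tgaaggctacACATTCAaccttttgtt
SMURF2, chr17:62541732-62541758, minus strand: ccatgaggccACATTCAgctgctattt
SKI, chr1:2240798-2240824, plus strand: aacagcaataACATTCAtatctctgga
In CAL-29 cells, 0 of these 16 genes were upregulated and 6 downregulated past the DEG threshold (unadjusted p below 1e-06) and their median log2 fold change was -0.33, against 6 upregulated, 24 downregulated and a median of -0.34 for the 57 pathway genes without the site. The 5637 values were 4, 5 and -0.06 with the site and 12, 17 and -0.16 without it. Among all genes tested, the upregulated and downregulated shares past this threshold were 14.9% and 15.0% for CAL-29, against 17.9% and 17.5% for 5637. Whether the siRNA acted through these sites was not tested.

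Promoter windows of 300 bases, which span the start of transcription, were found for 8 of the 10 genes in the RefSeq table of GRCh38.p14. They were searched on both strands for GTCTAGAC, the palindrome bound by SMAD3 and SMAD4, and for GGCGCC, a palindrome bound by BMP SMADs. GTCTAGAC occurs in 0.202% of 35116 promoter windows and, among the 8 genes, in SMAD6. GGCGCC occurs in 19.2% of windows and, among the 8 genes, in BMP4, where 1 window holds 2 copies. The capitals mark the matches.
SMAD6, chr15:66702214-66702241, plus strand of GRCh38.p14: ccgccaaagtGTCTAGACtggcatatga
BMP4, chr14:53955267-53955292, minus strand: ggggaacccgGGCGCCcgccccttct
BMP4, chr14:53955034-53955059, minus strand: gtcgcgcaggGGCGCCcgcggcctcc
These matches describe letters, not binding, and the libraries hold no binding data.

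With siKMT9α, TGFB2, ID3 and TGFB1 were downregulated DEGs in both lines. ID2 lay lower in both at an adjusted p below 0.05 but was a DEG in 5637 cells only. BMP7 was tested in CAL-29 cells only, and the remaining genes differed in call or direction between the lines. In CAL-29 cells, 5 of the 10 genes were DEGs, 1 upregulated (ID1) and 4 downregulated (TGFB1, TGFB2, ID3, SMAD7), where 29.9% of all genes tested were DEGs, 14.9% upward and 15.0% downward. With Benjamini-Hochberg adjustment, 9 passed 0.05 (2 up, 7 down) against a background of 69.5%, 34.3% upward and 35.3% downward. The siKMT9α and siCtrl libraries did not overlap for 9 of the 10, as for 72.3% of all genes. In 5637 cells, 9 of the 10 were tested, and 6 were DEGs, 1 upregulated (BMP2) and 5 downregulated (BMP4, TGFB1, TGFB2, ID2, ID3), against 35.4% of all genes, 17.9% upward and 17.5% downward. At an adjusted p below 0.05, 8 were called (2 up, 6 down) against 70.6%, 35.0% upward and 35.6% downward, and 7 of 9 did not overlap, again beside 72.3%. Among 9 genes tested in both lines, 3 were DEGs in the same direction, all of them downregulated, where 16.8% of all genes were DEGs in the same direction and 8.43% were downregulated in both. Both a DEG call and a log2 change of 1 or more in either direction were reached by 3 genes in CAL-29 cells (10.3% of all genes) and 4 in 5637 cells (7.38%). In CAL-29 cells, BMP7 and ID2 had a change of that size without being DEGs. The median log2 fold change was -0.98 over the 10 genes of CAL-29 cells and -0.39 over the 9 of 5637 cells, beside -0.02 and -0.01 over all genes. The genes are described singly below.

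**Figure D1:**
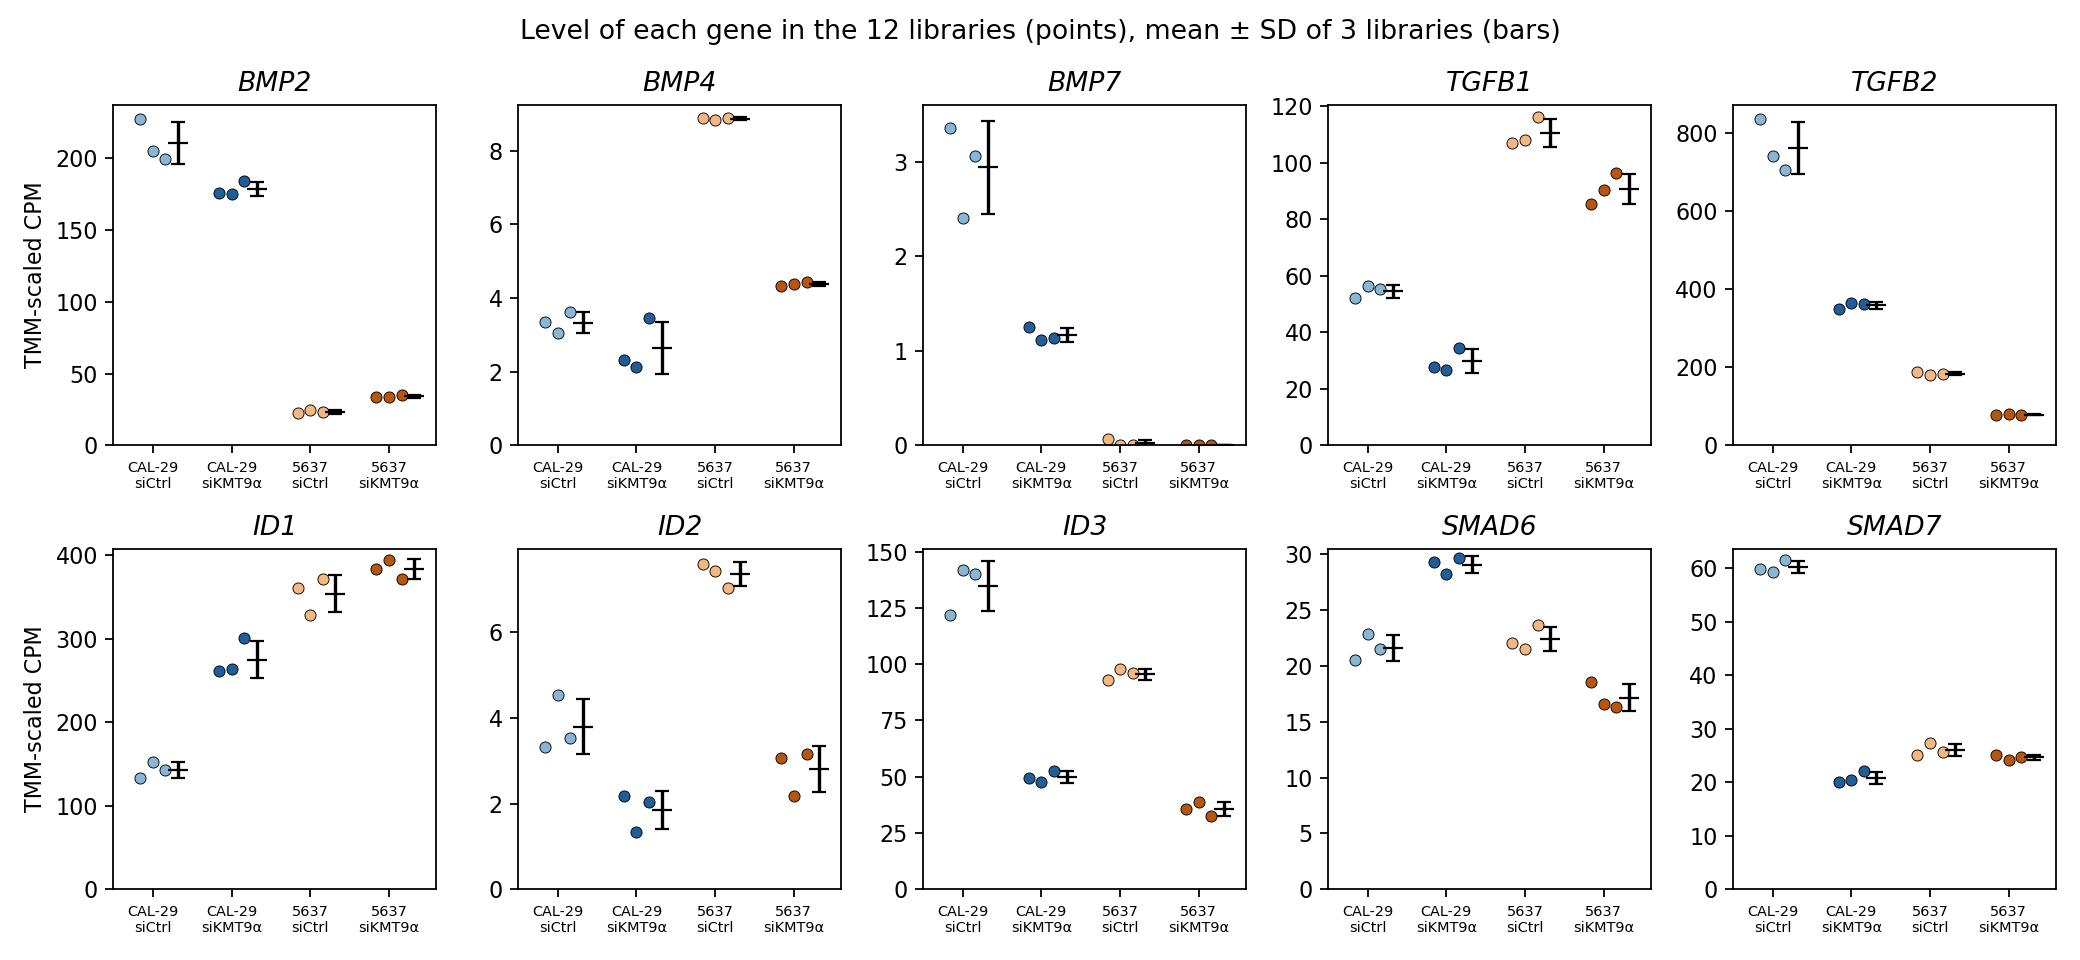
Level of each of the 10 genes, in TMM-scaled CPM on linear axes from 0, in the 12 libraries (points) with the mean and SD of 3 libraries (bars). TGFB2 and ID3 lay lower with siKMT9α in both lines, ID1 lay higher in CAL-29 cells, and BMP7 was near 0 in 5637 cells.

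TGFB2 encodes the TGF-β2 ligand and lies on chromosome 1 of GRCh37 from 218518678 to 218617961 on the plus strand. It had 836, 743 and 706 CPM in CAL-29 cells with siCtrl and 350, 366 and 362 CPM with siKMT9α. All siKMT9α libraries lay below the lowest control, at 46.5% of the control level (log2 fold change -1.10, standard error 0.06, adjusted p = 5.72e-13). The control libraries of 5637 cells had 189, 181 and 182 CPM, which compares with 78.4, 79.5 and 76.8 CPM after siKMT9α. Again the groups did not overlap, and 42.5% of the level was left (log2 fold change -1.23, standard error 0.04, adjusted p = 5.61e-22). The 2 responses differed by -0.15 on the log2 scale (95% interval -0.29 to -0.01, adjusted p = 0.0757). Antisense TGFB2-AS1 covers 11.8% of its exon bases, and the use of strand in counting is not given in the sources used here.

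TGFB1, for TGF-β1, lies on chromosome 19 from 41807492 to 41859827 on the minus strand. Its CAL-29 libraries had 52.0, 56.3 and 55.3 CPM with siCtrl and 27.8, 26.8 and 34.6 CPM with siKMT9α, without overlap. The level fell to 53.6% (log2 fold change -0.90, standard error 0.08, adjusted p = 1.28e-09). The 5637 libraries had 107, 108 and 116 CPM against 85.5, 90.4 and 96.2 CPM. Here the groups were also apart, but 82.0% of the level was left (log2 fold change -0.29, standard error 0.04, adjusted p = 9.03e-07), close to the DEG threshold. Without siCtrl replicate 3 or siKMT9α replicate 1 the log2 fold change of this line was -0.25, without siKMT9α replicate 2 it was -0.28, and none of these passed 1e-06. The fall was smaller in 5637 cells than in CAL-29 cells by 0.60 on the log2 scale (95% interval 0.41 to 0.78, adjusted p = 2.87e-06 for the interaction of line and siRNA).

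BMP2, a ligand gene known for bone formation and for inducing ID genes, lies on chromosome 20 from 6748333 to 6760893 on the plus strand and moved in opposite directions in the lines. The CAL-29 libraries had 227, 205 and 199 CPM with siCtrl and 176, 175 and 184 CPM with siKMT9α. The latter lay wholly lower, with 83.5% of the level left, which passed an adjusted p of 0.05 but not the DEG threshold (log2 fold change -0.26, standard error 0.05, adjusted p = 0.000163). In 5637 cells, 22.3, 24.8 and 23.2 CPM with siCtrl stood against 33.5, 33.8 and 35.2 CPM with siKMT9α. All siKMT9α libraries of this line were higher, by 1.46-fold (log2 fold change 0.54, standard error 0.06, adjusted p = 1.80e-09). The responses differed by 0.79 on the log2 scale (95% interval 0.64 to 0.94, adjusted p = 5.18e-10).

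BMP4, the closest relative of BMP2 among the ligands, lies on chromosome 14 from 54416454 to 54425479 on the minus strand and was weakly expressed. In CAL-29 cells it had 3.36, 3.04 and 3.61 CPM with siCtrl and 2.33, 2.13 and 3.45 CPM with siKMT9α. The groups overlapped, since siKMT9α replicate 3 lay within the controls, and the change was not called (log2 scale -0.38, standard error 0.20, adjusted p = 0.0911). The 5637 libraries had 8.88, 8.83 and 8.90 CPM against 4.33, 4.37 and 4.43 CPM. Nearly no spread was seen within these groups, and the level fell to 49.3% (log2 fold change -1.02, standard error 0.10, adjusted p = 9.64e-10). The responses differed by -0.65 (95% interval -1.08 to -0.22, adjusted p = 0.0106), and by -0.44 without CAL-29 siKMT9α replicate 3, which was then not called at an adjusted p of 0.05.

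BMP7, a ligand gene with roles in kidney and epithelial development, lies on chromosome 20 from 55743809 to 55841697 on the minus strand. It had 85, 63 and 83 counts in the siCtrl libraries of CAL-29 cells and 38.5, 36.5 and 29 counts with siKMT9α, that is 3.36, 2.40 and 3.06 CPM against 1.25, 1.11 and 1.14 CPM. The groups did not overlap, and 39.3% of the level was left, which passed an adjusted p of 0.05 but not the DEG threshold (log2 fold change -1.35, standard error 0.22, adjusted p = 1.56e-05). Only 1 of 6 libraries of 5637 cells held any count, with 1.5 counts in siCtrl replicate 1. A count of 0 allows up to 3 counts, between 0.0854 and 0.111 CPM in the other 5 libraries, so no fold change was computed for this line.

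SMAD7 encodes an inhibitory SMAD that recruits ubiquitin ligases to activated TGF-β and BMP receptors, and lies on chromosome 18 from 46446223 to 46477335 on the minus strand. The siCtrl libraries of CAL-29 cells had 59.8, 59.4 and 61.6 CPM, compared with 20.0, 20.4 and 22.1 CPM after siKMT9α. The level fell to 34.1% (log2 fold change -1.55, standard error 0.06, adjusted p = 4.64e-15), the largest fall among the 10 genes in this line. In 5637 cells, 25.2, 27.3 and 25.7 CPM stood against 25.2, 24.2 and 24.7 CPM. These groups touched, with no call (log2 fold change -0.08, 95% interval -0.20 to 0.04, adjusted p = 0.243). The responses differed by 1.46 on the log2 scale (95% interval 1.29 to 1.63, adjusted p = 7.62e-15), the largest difference between the lines among the 9 genes tested in both. With siKMT9α, SMAD7 thus had 20.0 to 22.1 CPM in CAL-29 cells and 24.2 to 25.2 CPM in 5637 cells, where the controls had differed by -1.21 on the log2 scale. Of its 4 transcripts in the tables, each gave a log2 fold change from -1.63 to -1.55 in the CAL-29 libraries and from -0.09 to -0.08 in those of 5637, although they share most reads.

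SMAD6, the inhibitory SMAD that acts mainly on BMP signalling, lies on chromosome 15 from 66994574 to 67075187 on the plus strand. It had 20.5, 22.8 and 21.5 CPM with siCtrl and 29.3, 28.2 and 29.6 CPM with siKMT9α in CAL-29 cells. Every siKMT9α library was higher, by 1.33-fold (log2 fold change 0.41, standard error 0.07, adjusted p = 2.43e-05). The 5637 libraries had 22.0, 21.5 and 23.6 CPM against 18.5, 16.6 and 16.3 CPM. There every siKMT9α library was lower, at 76.3% of control (log2 fold change -0.39, standard error 0.07, adjusted p = 1.06e-05). Neither change passed the DEG threshold, but both passed an adjusted p of 0.05, and the difference between the responses was called (-0.81 on the log2 scale, 95% interval -1.01 to -0.62, adjusted p = 4.14e-08). SMAD6 and BMP2 were thus called in opposite directions in the lines at an adjusted p of 0.05, as were 9.89% of 13699 genes tested in both. The counts kept for SMAD6 are those of a non-coding RefSeq transcript, NR_027654, and the coding NM_005585 gave 0.40 and -0.39.

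BAMBI encodes a receptor-like membrane protein without a kinase that blocks TGF-β and BMP receptor complexes, and lies on chromosome 10 from 28966439 to 28971861 on the plus strand. In CAL-29 cells it had 234, 232 and 221 CPM with siCtrl and 129, 140 and 127 CPM with siKMT9α. The level fell to 57.0% (log2 fold change -0.81, standard error 0.05, adjusted p = 7.34e-12). It was low in 5637 cells, with 6.65, 9.62 and 6.32 CPM against 5.97, 5.99 and 6.38 CPM. The groups overlapped, and the change of -0.29 on the log2 scale (standard error 0.13, adjusted p = 0.0433) was -0.08 without siCtrl replicate 2. The responses differed by 0.50 (95% interval 0.24 to 0.77, adjusted p = 0.00189).

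ID1, a target gene that SMAD1 and SMAD5 induce directly, lies on chromosome 20 from 30193086 to 30194318 on the plus strand. Its CAL-29 libraries had 134, 153 and 143 CPM with siCtrl and 261, 264 and 301 CPM with siKMT9α. The level rose 1.90-fold without overlap (log2 fold change 0.92, standard error 0.06, adjusted p = 1.33e-11). ID1 was more abundant in 5637 cells, with 361, 329 and 372 CPM against 384, 395 and 372 CPM. The groups touched, and the 1.08-fold difference passed an adjusted p of 0.05 but not the DEG threshold (log2 fold change 0.11, standard error 0.04, adjusted p = 0.00876). The responses differed by -0.83 (95% interval -0.98 to -0.67, adjusted p = 3.19e-10).

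ID3 lies on chromosome 1 from 23884417 to 23885992 on the minus strand, and its product, like that of ID1, lacks a DNA-binding region. It had 122, 142 and 140 CPM against 49.6, 47.6 and 52.5 CPM in CAL-29 cells. The siKMT9α libraries held 36.5% of the control level (log2 fold change -1.46, standard error 0.06, adjusted p = 9.82e-15). In 5637 cells, 92.9, 97.8 and 96.0 CPM stood against 35.5, 38.9 and 32.5 CPM, or 37.2% (log2 fold change -1.43, standard error 0.05, adjusted p = 5.23e-20). The responses differed by 0.01 (95% interval -0.16 to 0.19, adjusted p = 0.91), and the sign of this small difference changed with scaling by total counts, to -0.10.

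ID2 lies on chromosome 2 from 8818975 to 8824591 on the plus strand and was the weakest of the 3 ID genes. The CAL-29 libraries had 3.32, 4.53 and 3.53 CPM against 2.17, 1.35 and 2.04 CPM, from between 45 and 119 counts each. The groups did not overlap, and 47.9% of the level was left, which passed an adjusted p of 0.05 but not the DEG threshold (log2 fold change -1.06, standard error 0.21, adjusted p = 0.000121). With 7.59, 7.43 and 7.04 CPM against 3.06, 2.19 and 3.16 CPM, 5637 cells held 38.3% of the control level (log2 fold change -1.39, standard error 0.13, adjusted p = 2.07e-10). The interval of the difference, -0.85 to 0.17, left both directions possible (adjusted p = 0.268). Antisense ID2-AS1 covers 6.74% of the exon bases of ID2.

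ID4, the remaining ID gene, is no member and is named after its values were seen. It moved from 27.4 to 5.25 CPM in CAL-29 cells (group means, log2 fold change -2.40, adjusted p = 2.99e-15) and from 1.23 to 0.347 CPM in 5637 cells (-1.81, adjusted p = 2.30e-05, not a DEG). ID2, ID3 and ID4 thus lay lower with siKMT9α in both lines at an adjusted p of 0.05, and ID1 lay higher. In 5637 cells ID1 rose by only 1.08-fold with groups that touched, and its log2 fold change was 0.06 to 0.15 over 17 settings. The ratio of ID1 to ID3 counts within a library is not touched by scaling between libraries. It was chosen after the values were seen, for genes that moved apart, and is a description. In CAL-29 cells, ID1 had 1.10, 1.07 and 1.02 counts per count of ID3 with siCtrl and 5.26, 5.55 and 5.74 with siKMT9α, a 5.18-fold change. For 5637 cells the ratios were 3.89, 3.37 and 3.88 against 10.8, 10.1 and 11.4, a 2.91-fold change. The ratio of SMAD6 to SMAD7, likewise a description, rose in CAL-29 cells, from between 0.342 and 0.385 with siCtrl to between 1.34 and 1.46 with siKMT9α. In 5637 cells it fell without overlap, from between 0.790 and 0.919 to between 0.659 and 0.733.

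**Figure D2:**
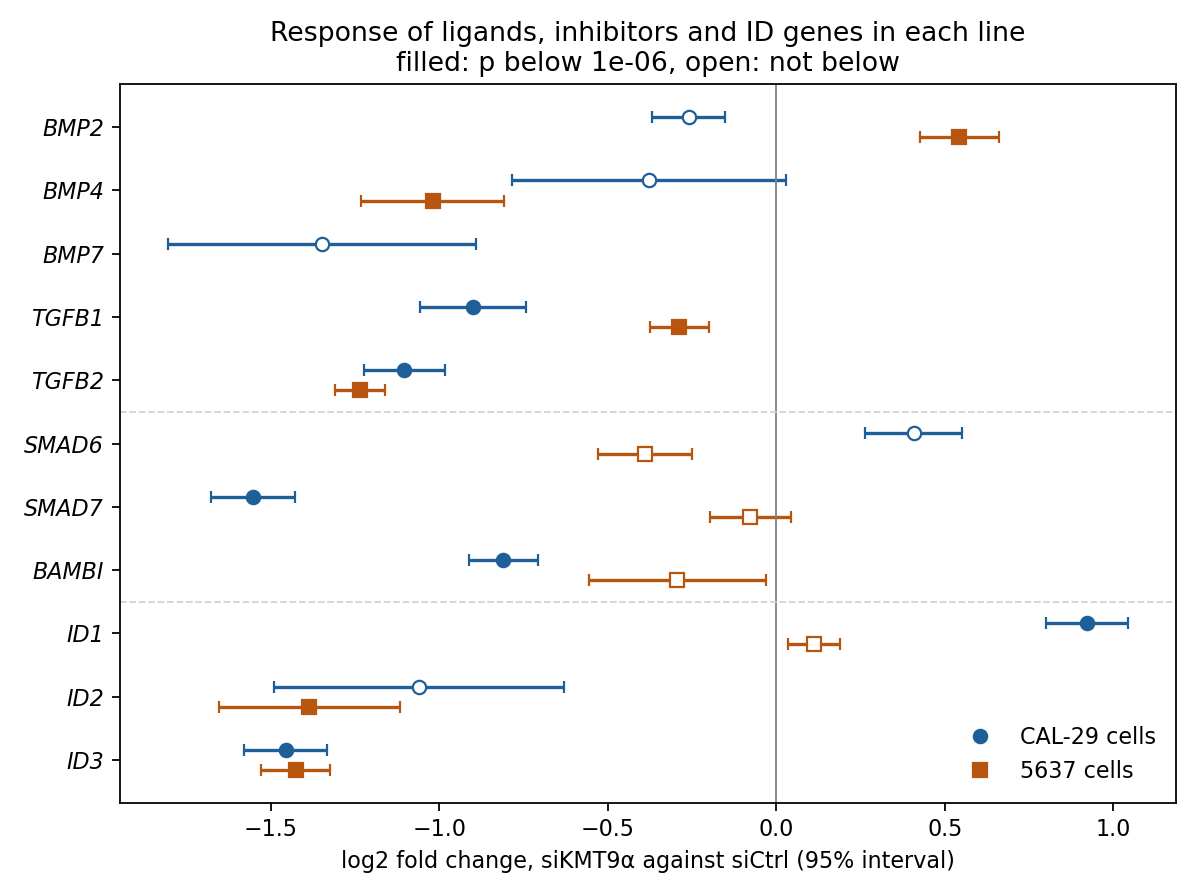
Log2 fold change of siKMT9α against siCtrl with its 95% interval (edgeR, 3 libraries per siRNA) in CAL-29 cells (circles) and 5637 cells (squares), for ligands, inhibitors and ID genes from top to bottom. Filled symbols have an unadjusted p below 1e-06; BMP2 and SMAD6 lie on opposite sides of 0 in the lines, SMAD7 at -1.55 and -0.08, and ID3 at -1.46 and -1.43.

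The difference between the responses of the lines was called for 6 of the 10 genes (BMP2, BMP4, TGFB1, ID1, SMAD6 and SMAD7) at an adjusted p below 0.05, where 50.3% of 15411 genes were called. The fitted BMP7 value rests on a line with almost no counts and is not given. The control levels themselves differed between the lines for 9 of the 10 genes, BMP7 included, where 85.3% of all genes were called. Relative to CAL-29 cells, siCtrl-treated 5637 cells had less BMP2 (log2 difference -3.17, adjusted p = 1.65e-28), TGFB2 (-2.05, adjusted p = 4.95e-25), SMAD7 (-1.21, adjusted p = 2.32e-18) and ID3 (-0.50, adjusted p = 1.96e-09). They had more BMP4 (1.41, adjusted p = 1.45e-10), ID1 (1.31, adjusted p = 4.28e-19), TGFB1 (1.02, adjusted p = 3.65e-15) and ID2 (0.95, adjusted p = 1.57e-06). SMAD6 was not called (0.05, 95% interval -0.09 to 0.19, adjusted p = 0.474). BMP7 was at or under 3 counts in the 5637 controls and is given no fold. BAMBI, beside the 10 genes, was 30.6-fold lower in 5637 cells (log2 difference -4.93, adjusted p = 4.16e-29). Lines differ in medium, dose and reagent as well as in origin, and these cannot be told apart.

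Levels of different genes were compared per kilobase of the MANE Select transcript, as CPM per kb, which is approximate because the counts were made on RefSeq transcripts. In siCtrl-treated CAL-29 cells, the order was ID1 (145), ID3 (142), BAMBI (135), TGFB2 (130.0), BMP2 (59.5), TGFB1 (19.6), SMAD7 (18.0), SMAD6 (5.64), ID2 (2.93), BMP4 (1.73) and BMP7 (0.731). The libraries of each of the first 4 overlapped with those of its neighbour, so their order is not resolved. The 5637 order was ID1 (360.0), ID3 (101), TGFB1 (39.9), TGFB2 (31.4), SMAD7 (7.78), BMP2 (6.63), SMAD6 (5.85), ID2 (5.66), BMP4 (4.59), BAMBI (4.45) and BMP7 (0.0052). There the neighbours SMAD6 and ID2 overlapped, as did BMP4 and BAMBI. In CAL-29 controls TGFB2 thus stood above TGFB1 and in 5637 controls below it, and with siKMT9α 5637 cells had 32.6 CPM per kb of TGFB1 and 13.3 of TGFB2.

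The rest of the pathway was taken as 10 overlapping lists, with 109 genes in all that include the 10 and BAMBI. In CAL-29 cells 89 were tested, of which 7 were upregulated and 37 downregulated past the DEG threshold, 49.4% beside the 29.9% of all genes, and the median was -0.43 on the log2 scale. In 5637 cells 84 were tested, of which 17 were upregulated and 27 downregulated, 52.4% beside 35.4%, with a median of -0.14. The lists were chosen with earlier results of these data known, so these counts describe them and were not tested as sets. Each count below stands beside the shares of all genes tested, which were 14.9% upward and 15.0% downward for CAL-29, and 17.9% upward and 17.5% downward for 5637. Many lists hold so few called genes that leaving out 1 library moves their counts, and those moves are given with them.

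**Figure D3:**
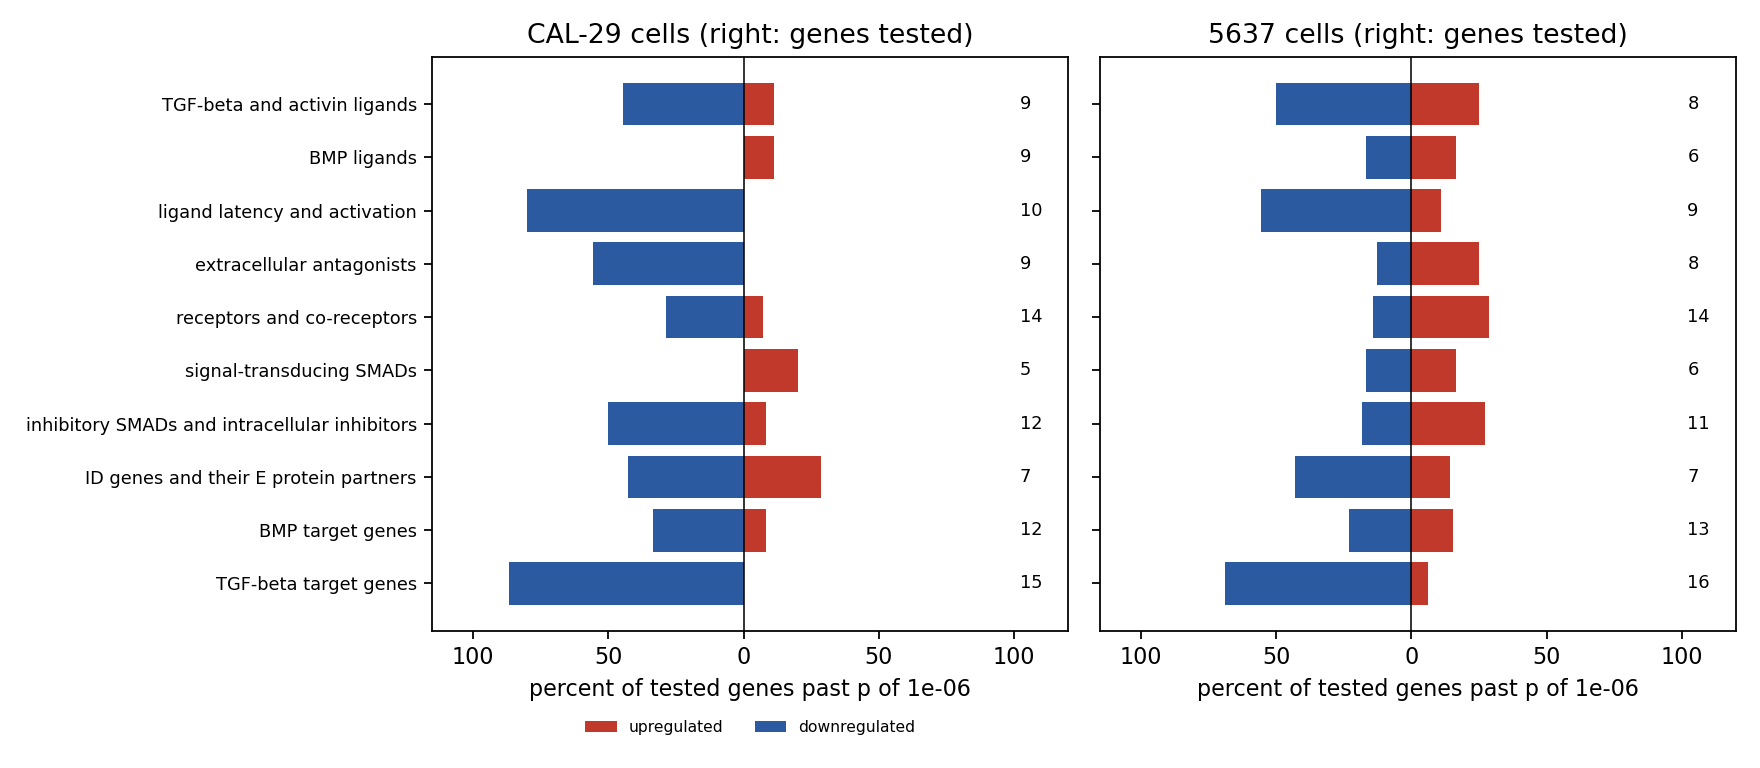
Percent of the tested genes of each list that were upregulated (right of 0) or downregulated (left of 0) past an unadjusted p of 1e-06, in CAL-29 cells and 5637 cells, with the number of genes tested at the right of each panel. TGF-β target genes had 13 of 15 downregulated in CAL-29 cells and 11 of 16 in 5637 cells, beside 15.0% and 17.5% of all genes, and the receptor list had more upregulated than downregulated genes in 5637 cells. The lists were chosen with earlier results of these data known, and the shares are a description.

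Among 12 TGF-β and activin ligands, 1 was upregulated and 4 downregulated of 9 tested in CAL-29 cells, and 2 and 4 of 8 in 5637 cells. TGFB1 and TGFB2, described above, are among the downregulated genes of both lines. INHBE, an activin subunit, was downregulated in both (log2 fold change -1.22, standard error 0.10, and -1.58, standard error 0.16). INHBA, the subunit of activin A, moved from 106 to 64.8 CPM in CAL-29 cells and from 144 to 245 CPM in 5637 cells (group means; log2 fold change -0.73 and 0.77, both past 1e-06). INHBB moved from 2.65 to 0.403 CPM in 5637 cells (log2 fold change -2.71, adjusted p = 1.90e-10), whereas its 29.3 and 30.5 CPM in CAL-29 cells were not called (0.04, adjusted p = 0.667).
Of 15 BMP ligands, 9 were tested in CAL-29 cells with 1 upregulated and 0 downregulated, and 6 in 5637 cells with 1 each way. Those called in 5637 cells were BMP2 and BMP4, described above. The 5637 count was 2 upregulated without siCtrl replicate 2, where BMP6 passed (0.69), and also without the filter, with the likelihood ratio test and with DESeq2. The count of 0 downregulated in CAL-29 cells was 2 without the filter on low counts and with the replicate block, and 1 with the likelihood ratio test and with DESeq2. The upregulated gene in CAL-29 cells was BMP3, known as a BMP antagonist in bone, from 0.294 ± 0.142 to 6.44 ± 0.101 CPM (SD, n = 3; log2 fold change 4.42, adjusted p = 1.57e-12). Its control libraries had only 0.152 to 0.435 CPM, so that it passed the filter through the siKMT9α libraries, and with at least 10 counts required in every library it was not tested and the count was 0. It had 1.40 and 0.980 CPM in 5637 cells (-0.51, adjusted p = 0.056). BMP8A (-1.17 and 0.76) and BMP6 (-0.31 and 0.60) had opposite signs in the lines, and BMP8A in 5637 cells missed an adjusted p of 0.05 (0.0927). BMP8A had only 0.374 and 0.651 CPM there (group means), and its groups overlapped.

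Genes of ligand latency and activation, which hold TGF-β in the matrix or release it, gave 0 up and 8 down of 10 in CAL-29 cells and 1 up and 5 down of 9 in 5637 cells. The 8 became 5 without siCtrl replicate 2 or without siKMT9α replicate 3 of CAL-29 cells. The 1 upregulated gene of 5637 cells was lost without any 1 of the siCtrl libraries, without siKMT9α replicate 2 or 3, with total-count or upper quartile scaling and in the joint model. LTBP2, a latent TGF-β binding protein family gene, moved from 401 to 145 CPM and from 185 to 81.7 CPM (log2 fold change -1.48 and -1.18). ITGAV, the integrin αV chain of TGF-β-activating integrins, followed (-1.28 and -0.82), as did LTBP1 (-0.90 and -0.59) and LTBP3 (-0.42 and -1.20), which bind latent TGF-β. LTBP3 in CAL-29 cells missed 1e-06 without siCtrl replicate 2 (-0.41), siKMT9α replicate 2 (-0.41) or siKMT9α replicate 3 (-0.42). Extracellular antagonists had 0 up and 5 down of 9 in CAL-29 cells and 2 up and 1 down of 8 in 5637 cells. The 5 became 3 with at least 10 counts required in every library, where fewer genes were tested, and the 2 became 1 without siKMT9α replicate 3 of 5637 cells, where NOG missed 1e-06 (0.60). FSTL3, which binds activins, was downregulated in both (-2.35, standard error 0.05, and -2.69, standard error 0.05). NOG, encoding the BMP antagonist noggin, moved from 4.13 to 0.480 CPM in CAL-29 cells and from 8.76 to 14.3 CPM in 5637 cells (-3.09, adjusted p = 5.71e-10, and 0.71, adjusted p = 1.19e-07). FST, encoding the activin antagonist follistatin, went the same ways, from 8.29 to 3.09 CPM and from 138 to 215 CPM (-1.43 and 0.64, both past 1e-06). SOSTDC1, another antagonist, had -1.54 in 5637 cells (adjusted p = 0.000334) and 0.26 in CAL-29 cells (adjusted p = 0.523). Its levels were very low, 0.846 and 0.288 CPM in 5637 cells and 0.495 and 0.605 CPM in CAL-29 cells (group means).

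Receptors and co-receptors gave 1 up and 4 down of 14 in CAL-29 cells and 4 up and 2 down of 14 in 5637 cells. TGFBR1, the type I TGF-β receptor, moved from 79.8 to 17.5 CPM and from 52.1 to 19.7 CPM (log2 fold change -2.20, standard error 0.06, and -1.41, standard error 0.05). BMPR1A, a type I BMP receptor, moved from 60.1 to 21.8 CPM and from 26.4 to 8.14 CPM (-1.49 and -1.70). Both are among the genes whose 3′ UTR holds ACATTCA, shown above, as are SMURF2, FST and SKI. Of these, FST and SKI were upregulated in 5637 cells (0.64 and 0.41). RGMB, a BMP co-receptor, was upregulated in both lines (0.72 and 0.61), and ACVR1C, a nodal and activin receptor, was called in CAL-29 cells (-2.50, adjusted p = 6.12e-08) and not in 5637 cells (0.12, adjusted p = 0.707). ACVR1C levels were low, 2.68 and 0.47 CPM in CAL-29 cells and 1.03 and 1.12 CPM in 5637 cells (group means). Signal-transducing SMADs gave 1 up and 0 down of 5, and 1 up and 1 down of 6. The CAL-29 count upward was 0 without siCtrl replicate 2, siKMT9α replicate 2 or siKMT9α replicate 3 and 2 without siCtrl replicate 1. The downward count there was 2 in place of 0 without siCtrl replicate 1, without the filter, with the likelihood ratio test, the replicate block or DESeq2, and in the joint model. In 5637 cells, the downward count was 2 or 3 under 5 settings.
The list of intracellular inhibitors, SMAD6, SMAD7 and BAMBI included, had 1 up and 6 down of 12 in CAL-29 cells and 3 up and 2 down of 11 in 5637 cells. The 1 upregulated gene of CAL-29 cells was lost without siCtrl replicate 2 or any 1 siKMT9α library, and there were 2 without siCtrl replicate 1. The 2 downregulated genes of 5637 cells became 4 without siKMT9α replicate 1, without the filter, with total-count or upper quartile scaling and with the likelihood ratio test. SKIL, a SMAD corepressor, was downregulated in both (-1.03 and -0.41), as was the ubiquitin ligase gene SMURF2 (-0.43 and -0.54). In CAL-29 cells SMURF2 kept its direction but missed 1e-06 with total-count scaling (-0.35) and without any 1 library except siCtrl replicate 1 (-0.40 to -0.43). PMEPA1, which sequesters receptor SMADs, moved from 1530 to 968 CPM and from 749 to 985 CPM (-0.68 and 0.39, both past 1e-06). SKI, a relative of SKIL, had -0.17 in CAL-29 cells, not a DEG (adjusted p = 0.00361), and 0.41 in 5637 cells. E proteins and ID genes together gave 2 up and 3 down of 7, and 1 up and 3 down of 7, where TCF3, an E protein gene, was upregulated in both lines (0.38 and 0.48). In CAL-29 cells TCF3 missed 1e-06 without siCtrl replicate 2 (0.38), siKMT9α replicate 2 (0.38) or siKMT9α replicate 3 (0.37), which left 1 upregulated gene of the 7. The 3 downregulated genes became 5 without the filter and with the likelihood ratio test in both lines, and with the replicate block in CAL-29 cells.

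BMP target genes, with the ID genes, both inhibitory SMADs and BAMBI among them, gave 1 up and 4 down of 12 in CAL-29 cells and 2 up and 3 down of 13 in 5637 cells, with medians of -0.38 and -0.39. The 2 upregulated in 5637 cells became 1 without siCtrl replicate 1, siCtrl replicate 3 or siKMT9α replicate 3. Their 3 downregulated genes became 6 without the filter and with the likelihood ratio test, and the 1 upregulated in CAL-29 cells became 2 under 6 settings. TGF-β target genes, with TGFB1 and SMAD7 among them, gave 0 up and 13 down of 15, and 1 up and 11 down of 16, with medians of -1.13 and -0.49. The count of 0 upward in CAL-29 cells was 1 without siCtrl replicate 1. TGFBI and JUNB were higher in CAL-29 cells at an adjusted p of 0.05 (0.22 each) and lower in 5637 cells (-0.07 and -0.53). TAGLN, an actin-binding protein gene, moved from 1180 to 93.8 CPM and from 53.4 to 1.16 CPM (log2 fold change -3.67 and -5.50). COL1A1, a collagen chain, fell by 3.33 and 3.16 on the log2 scale, and CCN2, a matricellular protein, by 3.79 and 1.71. These 3 genes are also targets of other pathways.

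**Figure D4:**
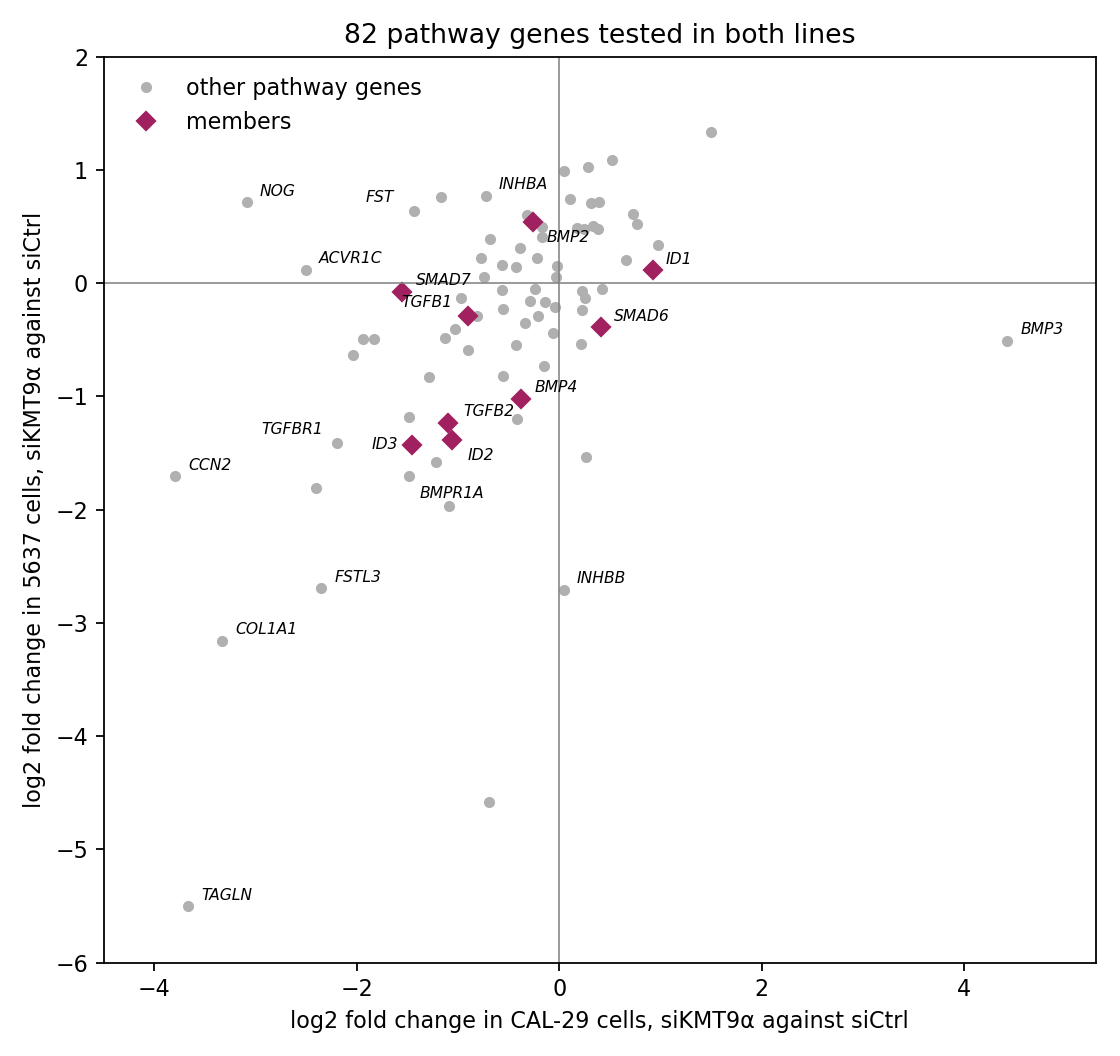
Log2 fold change of siKMT9α against siCtrl in CAL-29 cells (x axis) and 5637 cells (y axis) for 82 pathway genes tested in both lines, with 9 of the 10 genes as diamonds and other pathway genes as grey points. TGFB2, ID2 and ID3 lie at the lower left near TGFBR1, SMAD7 lies near 0 on the y axis only, and NOG and BMP3 lie far from the diagonal.

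The gene whose pattern was most like each one was found by Pearson correlation of log2 CPM over the 12 libraries, centred within each line, among 13690 genes. With the siRNA contrast shared by all libraries, these values are a description. TGFB2 was most like EPCAM (r = 0.998), ID3 like CHMP1A (0.998), SMAD7 like TNS4 (0.998) and ID1 like MED24 (0.991). The others were BMP2 with RTN4 (0.984), TGFB1 with PXDC1 (0.982), BMP4 with GAMT (0.981), ID2 with POLR2H (0.981) and SMAD6 with NUP98 (0.975). The likeness is of shape and not of size: EPCAM had log2 fold changes of -0.77 and -0.94 where TGFB2 had -1.10 and -1.23, and TNS4 had -2.53 and -0.16 where SMAD7 had -1.55 and -0.08.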

How the data were processed

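RNA of CAL-29 and 5637 cells was sequenced with 3 libraries per siRNA in each line. The authors used STAR 2.7.10b (hg19) for alignment and Homer 4.11 for counting on RefSeq transcripts, and deposited estimated counts that are not normalized and move in steps of 0.5 (37.3% are not whole). The authors' own p-values and log2 fold changes in the tables were not used. For each symbol, 1 transcript was kept, that with the highest total, with counts rounded to integers. Libraries were TMM-scaled and tested with edgeR 4.0.16 (R 4.3.3): filterByExpr, quasi-likelihood F test, each line alone. A DEG had an unadjusted p below 1e-06, the study's threshold, in the test given here. This gave 4396 DEGs in CAL-29 and 5085 in 5637 cells, fewer than the study reports, so calls here need not match the study's. Benjamini-Hochberg adjusted p-values are over all genes tested. A joint model of 12 libraries gave the interaction of line and siRNA, the comparison of controls and the CPM values. The standard error is the log2 fold change divided by the square root of F. For groups of 3, the smallest p of an exact permutation test is 0.1. Replicates differed by more than sampling noise (chi-square from 2.25 to 12.2 for each degree of freedom). The steps were tested on simulated data.

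Named genes were the 10 genes, BAMBI, N6AMT1, the most similar gene of each, and up to 4 genes per list: DEGs in both lines in the same direction, ranked by their smaller change, then genes of opposite sign with a called interaction. The genes and lists were chosen with earlier results of these data known. Alternatives were other filters, scalings, tests (DESeq2 1.42.0), thresholds, the replicate number as a block, all transcripts, unrounded counts, and each library left out. The 3′ UTRs came from GENCODE (GRCh37) and promoters from RefSeq (GRCh38.p14). Figures were drawn with matplotlib 3.10.9 under Python 3.11.15.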

Additional observations from a re-analysis of the deposited data

Results flagged for a closer look

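The response to siKMT9α differed between the lines, by the interaction of line and siRNA in edgeR (adjusted p below 0.05, as for 50.3% of all genes). The values here are the log2 fold change in 5637 cells minus that in CAL-29 cells. Among the 10 genes they were 0.79 for BMP2, -0.65 for BMP4, 0.60 for TGFB1, -0.83 for ID1, -0.81 for SMAD6 and 1.46 for SMAD7, and BAMBI had 0.50. Of the other ligands, INHBB had -2.77, INHBA 1.48, BMP3 -4.95, BMP8A 1.91 and BMP6 0.90. The size of the BMP3 value rests on CAL-29 controls of only 0.152 to 0.435 CPM. With at least 10 counts required in every library, BMP3 was not tested in CAL-29 cells, as given above. The antagonists NOG, FST and SOSTDC1 had 3.78, 2.05 and -1.81, the receptor gene ACVR1C had 2.61, and the inhibitor genes PMEPA1 and SKI had 1.06 and 0.56. SOSTDC1 in both lines and BMP8A in 5637 cells had group means below 1 CPM. With siKMT9α, so did ACVR1C and NOG in CAL-29 cells and INHBB and BMP3 in 5637 cells. The list genes beyond the 10 and BAMBI were named partly for their interaction, so that their values are a description.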

How the results depend on the processing

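No log2 fold change of the 10 genes, BAMBI or N6AMT1 turned its sign in either line over 17 settings. For BMP7 this holds for CAL-29 cells only, since no fold change was computed in 5637 cells. The number of DEGs among the 10 genes in CAL-29 cells, 5 as reported, was 9 without the filter on low counts, 8 with edgeR's likelihood ratio test, 9 with the replicate block, 9 at an adjusted p below 0.05 and 3 when a log2 size of 1 or more was required too. It was 7 with the DESeq2 test, and 6 with scaling by total counts and in the joint model. It was 5 with each library left out in CAL-29 cells, and 5 or 6 in 5637 cells. Every setting that raised the CAL-29 count also raised the number of DEGs over all genes of this line above 4396. The rise is therefore not particular to the 10 genes. BMP2, BMP7, ID2 and SMAD6 in CAL-29 cells passed 1e-06 under 2, 4, 3 and 6 of the 17 settings, and SMAD6 in 5637 cells under 5. TGFB1 in 5637 cells missed it in the joint model and without 3 of the libraries in turn, as given above. Over all genes, DEGs numbered 7847 and 9234 with every transcript, 10206 and 10143 at an adjusted p below 0.05, and 1513 and 1061 with the size limit, in CAL-29 and 5637 cells. With each library left out they numbered 3160 to 5533 and 4219 to 4952. At an unadjusted p below 1e-06, 2419 genes differed in response, and 7260 to 7768 of 15411 did at the adjusted threshold with each library left out. Scaling by total counts moved the upregulated share of DEGs from 49.9% to 59.4% in CAL-29 cells and from 50.5% to 42.8% in 5637 cells. The sign turned for uncalled values: ID3 between the lines (-0.10 with total counts, -0.057 to 0.078 with each library left out), INHBB in CAL-29 cells (-0.052 to 0.13) and ACVR1C in 5637 cells (-0.10 to 0.36). The difference for TGFB2 was called without the filter (-0.15), with total counts (-0.26), with the replicate block (-0.15) and without CAL-29 siCtrl replicate 1 (-0.22). The cause was not tested. Libraries with the same replicate number had correlations of their deviations between -0.011 and 0.082, so the numbers were not taken as pairs, and in neither line did every library correlate best with its own number. Depth limits BMP7 in 5637 cells, which was at or under 3 counts.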
